A study of Homo sapiens with 6 samples.

Results

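Cadherins are calcium-dependent adhesion receptors, and the 34 genes described here are 23 cadherins and 11 non-clustered protocadherins, taken by name out of 19974 protein-coding genes on chromosomes 1 to 22 and X. For each gene, the peaks of the H3K27me3 and EZH2 lists were counted over the whole gene with 5 kb on both sides, and the window's share of bases under peaks was taken as the measure. The members were grouped into 4 epithelial genes (CDH1, CDH3, CDH26 and PCDH1), 3 kidney and gut genes (CDH6, CDH16 and CDH17), 11 neural cadherins and 6 other cadherins. The rest were 7 delta-2 protocadherins and close relatives, 2 delta-1 protocadherins outside the epithelial group (PCDH7 and PCDH9) and PCDH15 of the hair cell. Their windows added up to 10.7 Mb, with a median of 136.7 kb against 34.2 kb for all protein-coding genes, several neural cadherins and protocadherins being very long genes.

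Classical cadherins bind the same cadherin on the neighbouring cell and are tied to actin inside the cell through catenins, and which cadherins a cell makes helps decide which cells it sticks to. E-cadherin (CDH1) holds epithelia together, K-cadherin (CDH6) belongs to the developing kidney and to renal carcinoma, and the type II cadherins and protocadherins sort neurons. Many of these developmental genes are known targets of Polycomb repressive complex PRC2, whose enzyme EZH2 places the repressive mark H3K27me3, and PRC2 can bind RNA. ZCCHC8 is the scaffold of the NEXT complex, which delivers short-lived nuclear RNA to the exosome for decay.

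The cells were ACHN, an established human renal carcinoma line, either ZCCHC8-KO (titled sgZ8) or ZCCHC8-WT (titled Ctrl). Chromatin of each genotype was immunoprecipitated for H3K27me3 and for EZH2, and the lists were called against an input of the same genotype. There was 1 library per antibody and genotype, so no difference below has a replicate check, no test between genotypes was possible, and every value describes these 4 libraries. The labels do not say whether a line is 1 clone. Transcripts were not measured, so neither the loss of ZCCHC8 nor the kidney origin of the cells could be checked against gene levels.

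With identical lines counted once, the H3K27me3 lists held 69840 peaks in KO and 93095 in WT, and the EZH2 lists 19566 in KO and 30734 in WT. Peaks were short, with list medians of 208 to 269 bp. The authors' score began at 4 in both KO lists and at 5 in both WT lists, and 28.6% of KO and 69.8% of WT H3K27me3 peaks scored 7 or more, so the lists may not rest on the same threshold. Read depth is not given. With each WT list cut by score to the number of peaks in the KO list, the members called lower for H3K27me3 below were the same 4 genes, whereas no EZH2 call of a lower member held.

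Promoter sequence was in the RefSeq table (GRCh38.p14, 250 bases before to 50 after a transcript start) for 21 of the 34 genes, with 33 promoters in all. No peak of the 4 lists fell in any of these 33. No promoter was given for CDH1, CDH3, CDH5, CDH6, CDH11, CDH13, CDH15, CDH16, CDH17, CDH22, CDH24, PCDH10 and PCDH20. The promoters of these genes, among them all kidney and gut genes, were therefore not checked. Over all 35116 promoters of the table, peaks were in 0.695% for KO H3K27me3, 0.886% for WT H3K27me3, 0.43% for KO EZH2 and 0.646% for WT EZH2, so few promoters of any gene held one. The following 4 are shown because the results turn on their genes or on the contrast between them: CDH8 and PCDH15 for H3K27me3, PCDH1 for EZH2, and CDH2 as a neural cadherin without an H3K27me3 peak. All lie on the minus strand and are written 5′ to 3′ along the gene, at chr16:62036389-62036688, chr10:55627893-55628192, chr5:141869578-141869877 and chr18:28177081-28177380 in that order; capitals mark the dinucleotide CG, which reads the same on both strands.
CDH8: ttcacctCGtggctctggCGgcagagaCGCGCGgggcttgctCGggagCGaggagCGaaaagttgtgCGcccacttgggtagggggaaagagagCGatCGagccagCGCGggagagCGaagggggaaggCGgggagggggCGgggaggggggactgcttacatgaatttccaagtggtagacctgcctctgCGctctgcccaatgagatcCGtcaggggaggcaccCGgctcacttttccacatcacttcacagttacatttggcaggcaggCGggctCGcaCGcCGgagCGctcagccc
PCDH15: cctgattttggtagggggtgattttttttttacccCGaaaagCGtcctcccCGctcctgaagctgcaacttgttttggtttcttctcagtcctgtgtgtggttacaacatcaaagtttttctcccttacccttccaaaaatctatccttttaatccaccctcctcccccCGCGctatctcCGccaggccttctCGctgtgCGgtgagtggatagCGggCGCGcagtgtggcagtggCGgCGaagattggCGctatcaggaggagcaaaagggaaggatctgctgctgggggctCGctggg
PCDH1: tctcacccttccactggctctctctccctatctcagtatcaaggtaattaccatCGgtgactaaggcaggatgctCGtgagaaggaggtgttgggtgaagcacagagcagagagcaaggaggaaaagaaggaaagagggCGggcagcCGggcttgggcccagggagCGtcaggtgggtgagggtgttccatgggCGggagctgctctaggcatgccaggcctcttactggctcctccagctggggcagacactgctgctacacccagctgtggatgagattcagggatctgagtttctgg
CDH2: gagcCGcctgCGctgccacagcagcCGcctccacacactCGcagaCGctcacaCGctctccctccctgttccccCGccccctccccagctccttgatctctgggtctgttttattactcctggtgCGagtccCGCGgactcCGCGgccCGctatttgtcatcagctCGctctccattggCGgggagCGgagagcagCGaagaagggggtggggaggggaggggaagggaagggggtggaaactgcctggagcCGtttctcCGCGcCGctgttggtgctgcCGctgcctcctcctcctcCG

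The CDH8 promoter shown had 24 CG, a number reached by 33.9% of all promoters in the table, and the CDH2 promoter shown had 23, reached by 35.8%. The PCDH15 promoter shown had 15 (48.9%) and the PCDH1 promoter 6 (66.3%). CDH8, PCDH15 and CDH2 each had a second promoter, not shown, with 19, 8 and 4 CG in that order. The median was 10 CG over the members' promoters and 14 over all promoters. The distances to the nearest peaks describe genes that were chosen for their peaks. At the CDH8 start shown, the nearest H3K27me3 peak lay 1103 bp away in KO and 74 bp away in WT. The nearest EZH2 peak lay 988 bp away in KO and 1351 bp away in WT. At the second CDH8 start the order of the genotypes turned. There the nearest H3K27me3 peak lay 801 bp away in KO and 1002 bp in WT, and the nearest EZH2 peak 2240 bp in KO and 1705 bp in WT. At the CDH2 start shown, with nearly as many CG, the nearest H3K27me3 peak was 539133 bp away in KO and 56042 bp away in WT. At the second CDH2 start it was 398644 bp away in KO and 196531 bp in WT. At the PCDH15 start shown, the nearest H3K27me3 peak was 273537 bp away in KO, against 889 bp in WT. At the second PCDH15 start it was 88421 bp away in KO, against 6109 bp in WT.

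Across the members, H3K27me3 peaks were found at 17 of 34 genes in KO and at 18 of 34 in WT, where 23.2% of all protein-coding genes had a peak in KO and 26.1% in WT. EZH2 peaks were found at 14 members in KO and 19 in WT, against 18.4% of all genes in KO and 27% in WT. Long windows catch more peaks: of the 22 members with a window of 100 kb or more, 13 had H3K27me3 in KO and 15 in WT, where 40.6% in KO and 48.8% in WT of the 3704 protein-coding genes of that size did. For EZH2 these were 12 of the 22 in KO (background 44.3%) and 18 of the 22 in WT (background 60.9%). Among the 12 shorter members, 4 in KO and 3 in WT had H3K27me3 (backgrounds 19.2% in KO and 20.9% in WT), and 2 in KO and 1 in WT had EZH2 (backgrounds 12.5% in KO and 19.3% in WT).

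The members' totals were carried by very few genes. H3K27me3 peaks over the 34 windows numbered 185 in KO and 396 in WT, covering 56626 bp in KO and 122616 bp in WT, a KO/WT ratio of 0.462 against 0.725 over all gene windows. PCDH15 by itself held 166 of the 396 WT peaks and 1 of the 185 KO peaks, and without it the ratio was 0.812. CDH8 held a further 69 peaks in KO and 81 in WT, and without both genes the ratio was 0.789. EZH2 peaks numbered 64 in KO and 95 in WT, covering 17669 bp in KO and 23346 bp in WT, a ratio of 0.757 against 0.653 over all gene windows. With each WT list cut to the size of the KO list, the members' ratios were 1.26 for EZH2 and 0.584 for H3K27me3. That cut can only raise a KO/WT ratio or leave it unchanged, and the ratio over all gene windows was not computed with it. The median member differed by 0 percentage points between genotypes with either antibody, as did the median of all genes. These medians reflect windows empty in both genotypes. They were 14 of 34 members for H3K27me3 and 13 for EZH2. Of all 19974 genes, 13760 were empty in both for H3K27me3 and 13426 for EZH2, which fixes their median at 0.

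A gene was called lower when its covered bases were at least 2-fold fewer in KO with at least 500 bp in WT, and higher in the reverse case. For H3K27me3, 4 members were called lower (PCDH15, CDH13, CDH17 and CDH19), where 6.84% of all genes were, and 0 higher, where 3.54% were. In genes with windows of 100 kb or more, which hold all 4 of these, 15% were called lower and 4.35% higher. For EZH2, 3 members were called lower (CDH12, CDH18 and PCDH15; 5.92% of all genes, 18.5% of those with long windows) and 1 higher (CDH11; 1.93% of all genes, 4.05% of those with long windows). Of the 12 members with shorter windows 0 were called, where 4.99% of such genes were lower and 3.36% higher for H3K27me3, and 3.05% lower and 1.45% higher for EZH2. The EZH2 calls rested on 16 peaks or fewer per list. Without a threshold, KO had fewer H3K27me3 bases than WT at 13 members and more at 6, beside 18.2% of all genes with fewer and 12.9% with more (34.6% and 17.9% of those with long windows). KO had fewer EZH2 bases at 15 members and more at 6, beside 22.2% of all genes with fewer and 10.5% with more (49.3% and 19.8% of those with long windows).

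**Figure D1:**
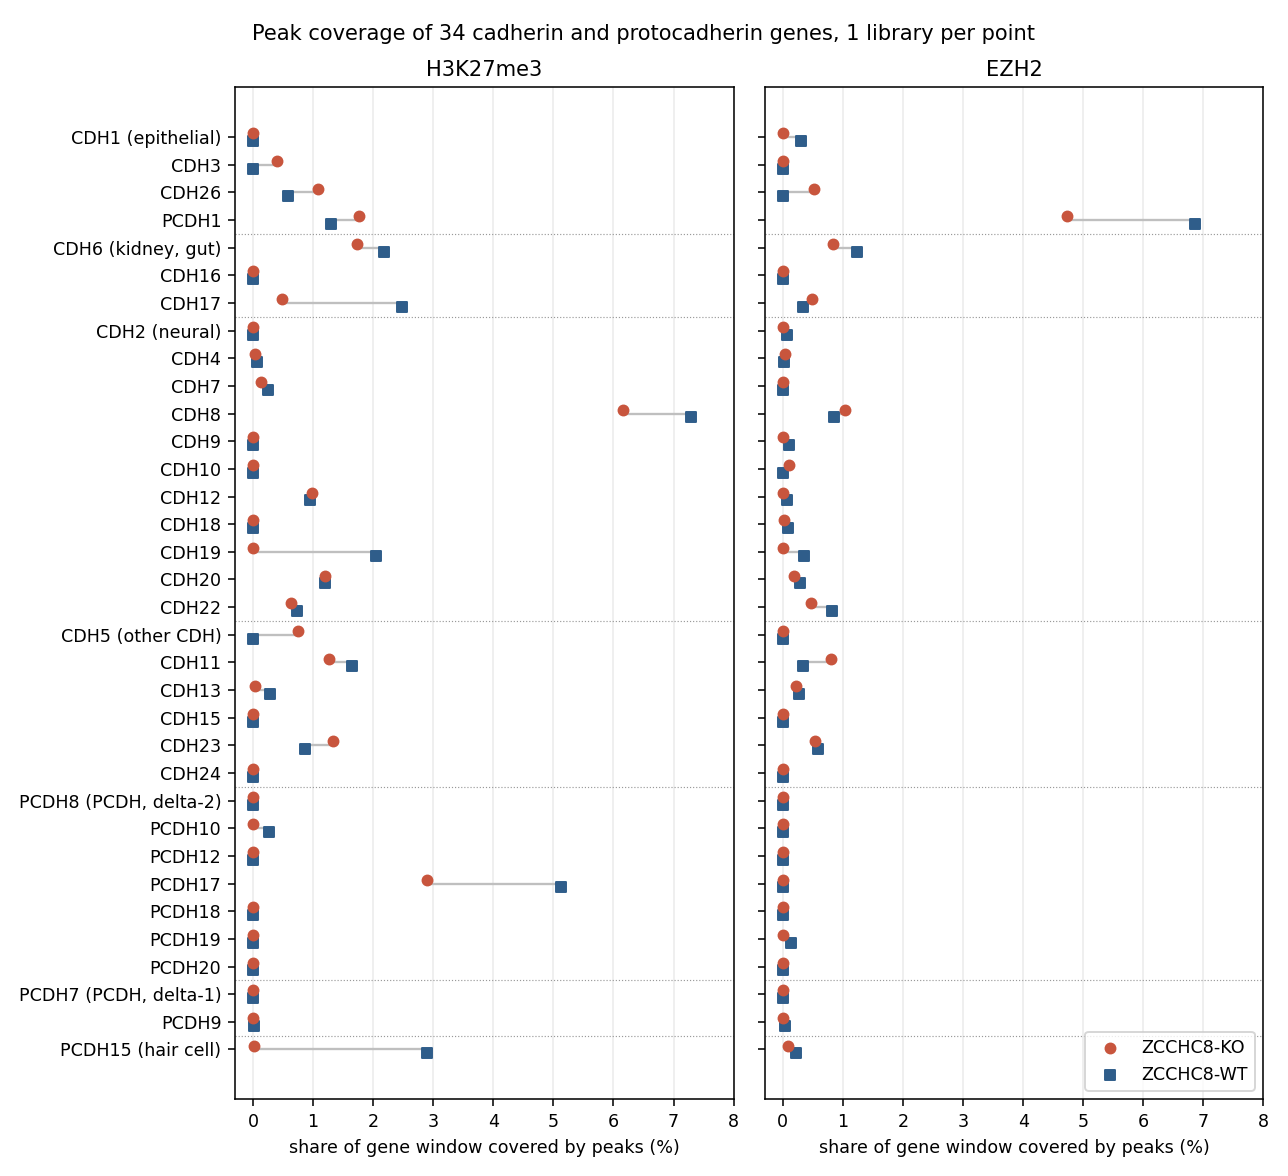
Share of each gene window covered by peaks (%), for H3K27me3 (left) and EZH2 (right), with 1 point per library: circles for ZCCHC8-KO and squares for ZCCHC8-WT, genes running down in role groups. CDH8, PCDH17, PCDH15 and CDH17 stand out for H3K27me3, at 6.16%, 2.90%, 0.00932% and 0.485% in KO and 7.29%, 5.12%, 2.90% and 2.48% in WT, and PCDH1 for EZH2, at 4.73% in KO and 6.85% in WT.

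The plot of all 34 genes shows both how sparse the marks were and how the members spread. No peak of any list was found at 8 of 34 genes, beside 56.9% of all genes and 24.2% of those with windows of 100 kb or more: kidney-specific CDH16, M-cadherin of muscle (CDH15), CDH24, PCDH7, PCDH8, PCDH12 of the endothelium, PCDH18 and PCDH20. At 11 members all 4 lists had a peak, beside 8.83% of all genes and 925 of the 3704 with long windows. EZH2 and H3K27me3 were at the same gene for 12 members in KO and 14 in WT, beside 12.0% in KO and 16.1% in WT of all genes and 29.0% in KO and 39.6% in WT of those with long windows. EZH2 without H3K27me3 was seen at 2 members in KO and 5 in WT, beside 1278 in KO and 2186 in WT of all 19974 genes.

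Among the epithelial genes, the adhesion gene that defines epithelia had no H3K27me3 peak in either list. CDH1, which encodes E-cadherin, had 0 H3K27me3 peaks in KO and 0 in WT, and 0 EZH2 peaks in KO against 2 short ones in WT (334 bp together). The 500 kb to the left of CDH1, which include CDH3, held 16 H3K27me3 peaks in KO and 12 in WT. The same stretch held 3 EZH2 peaks in KO and 4 in WT. No peak of any list lay in the 500 kb to the right of CDH1. P-cadherin (CDH3), its neighbour with an overlapping window, had 2 H3K27me3 peaks in KO (396 bp) and 0 in WT, and no EZH2 peak. CDH26, an epithelial cadherin on chromosome 20, had 2 H3K27me3 peaks in each genotype, covering 943 bp in KO and 505 bp in WT, and 1 EZH2 peak in KO (448 bp) against 0 in WT. H3K27me3 bases were thus more in KO than in WT at 3 of the 4 epithelial genes, on 6 peaks in KO and 4 in WT. The direction turned at CDH26 with scores of 7 or more (-0.58 percentage points, KO minus WT) and at PCDH1 with flanks of 20 kb (-0.51). The KO/WT ratio of covered H3K27me3 bases was 1.21 over chromosome 16 as a whole, which holds CDH1 and CDH3. It was 1.43 over chromosome 20, which holds CDH26, and 0.734 over chromosome 5, which holds PCDH1. Whether these ratios relate to the 4 genes was not tested.

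PCDH1, a protocadherin of airway and other epithelia (chromosome 5, 141853090 to 141878410), was the member most covered by EZH2. It had 5 EZH2 peaks over 1671 bp (4.73% of its window) in KO and 7 over 2421 bp (6.85%) in WT. With these shares it ranked 197th of 19974 genes in KO and 126th in WT. Of these peaks, 3 of the 5 in KO overlapped a WT peak. H3K27me3 was modest beside it, with 2 peaks in each genotype, covering 622 bp (1.76%) in KO and 460 bp (1.30%) in WT, and no EZH2 peak of PCDH1 overlapped an H3K27me3 peak of its genotype. All 5 KO peaks lay 18288 to 24617 bp from the gene's left end. The start of the promoter shown above (141869627) lies inside the gene, not at its right end. The KO peaks lay upstream of that start, the nearest 1751 bp away. In WT the nearest EZH2 peak was 2151 bp away, on the downstream side. Within 5 kb of the gene's right end there were 3 EZH2 peaks in KO and 5 in WT.

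Of the kidney and gut genes, CDH6 was marked near its left end in all 4 lists. CDH6 (chromosome 5, 31193686 to 31329146) had 8 H3K27me3 peaks over 2527 bp (1.74%) in KO and 8 over 3166 bp (2.18%) in WT. Its widest peak, starting 1628 bp inside the gene in KO and 1519 bp inside in WT, was 897 bp long in KO and 1163 bp in WT, the longest H3K27me3 peak at any member in each genotype. An EZH2 peak just outside the left end was also shared, 648 bp long in KO and 1074 bp in WT, out of 3 EZH2 peaks (1215 bp) in KO and 5 (1803 bp) in WT. These 2 stretches were therefore listed in both genotypes, and each was shorter in KO. A further H3K27me3 peak of CDH6 was shared, starting 4069 bp inside the gene in KO and 4054 bp inside in WT. That peak was longer in KO, at 328 bp against 288 bp in WT.

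**Figure D2:**
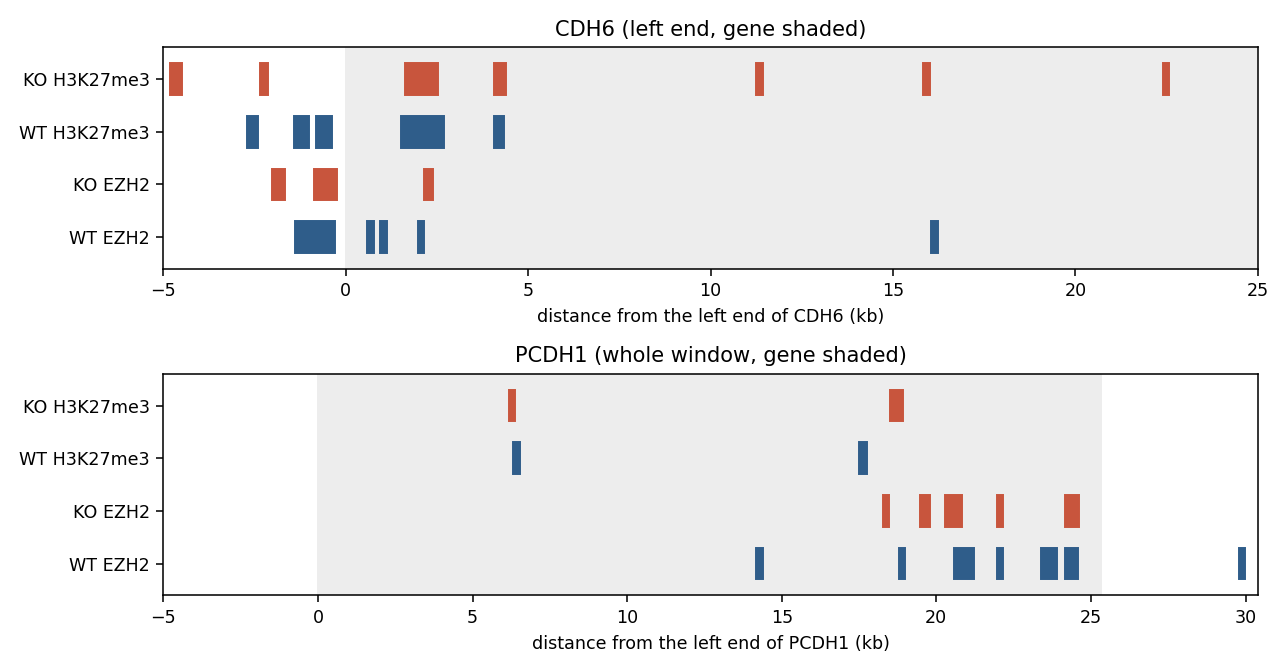
Positions of every peak near the left end of CDH6 (top, 5 kb outside to 25 kb inside) and over the PCDH1 window (bottom), as distance from the gene's left end in kb, with 1 row per list, KO above WT for each antibody; the gene is shaded. At CDH6 the widest H3K27me3 bar of each genotype (897 bp in KO, 1163 bp in WT) sits at the same place, and at PCDH1 the 5 EZH2 peaks in KO and 6 of the 7 in WT lie inside the gene.

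The map of these 2 genes shows shared peaks beside peaks of one genotype only. CDH17, the liver and intestine cadherin, differed most in this group, with 2 H3K27me3 peaks over 486 bp (0.485%) in KO and 7 over 2481 bp (2.48%) in WT. Its EZH2 did not follow, with 2 peaks in each genotype covering 491 bp in KO and 330 bp in WT. The 500 kb on each side of CDH17 also held fewer H3K27me3 peaks in KO, 12 against 30 in WT on the left and 11 against 23 on the right. CDH16, the cadherin named for its kidney-specific expression, had no peak in either genotype.

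CDH8, a type II cadherin of developing neurons (chromosome 16, 61647250 to 62036438), held the densest H3K27me3 of all members. It had 69 H3K27me3 peaks over 24576 bp (6.16%) in KO and 81 over 29091 bp (7.29%) in WT, ranking 590th of 19974 genes in KO and 564th in WT. EZH2 gave 16 peaks over 4117 bp (1.03%) in KO and 14 over 3426 bp (0.858%) in WT. H3K27me3 was thus a little lower and EZH2 a little higher in KO, neither by 2-fold, and with scores of 7 or more EZH2 was lower in KO too (-0.19 percentage points, KO minus WT). Of the CDH8 H3K27me3 peaks, 19 of 69 in KO and 19 of 81 in WT overlapped a peak of the other genotype. Over all gene windows 21.2% in KO and 15.7% in WT did. For EZH2, 0 of 16 in KO and 0 of 14 in WT did, where all gene windows gave 11.1% in KO and 6.53% in WT.

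Inside CDH8 the genotypes differed by place. Cut into 3 equal parts along the chromosome, a division made after the values were seen, the left part held 33 H3K27me3 peaks in KO and 30 in WT, and the right part 29 in KO and 24 in WT. The middle part held 4 in KO and 22 in WT. EZH2 peaks ran similarly in the middle, with 2 in KO and 7 in WT, and were more in KO in the right part, with 10 in KO and 5 in WT. The domain ran past the right end of the gene, where the next 500 kb held 82 H3K27me3 peaks in KO and 84 in WT; the left 500 kb held 26 in KO and 38 in WT.

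**Figure D3:**
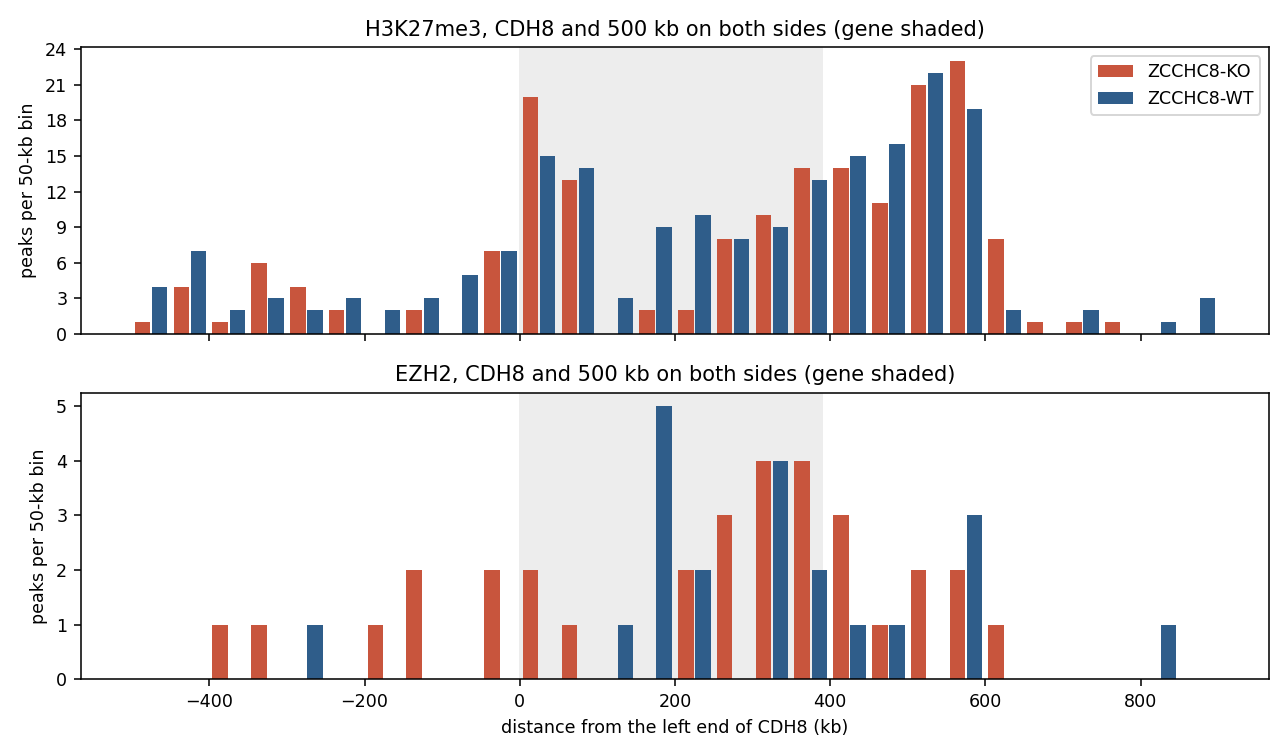
Number of peaks per 50-kb bin over CDH8 (shaded) and 500 kb on both sides, by distance from the gene's left end in kb, for H3K27me3 (top) and EZH2 (bottom), KO bars left of WT bars. The first bin inside the gene held 20 H3K27me3 peaks in KO and 15 in WT, the bins in the middle of the gene hold few KO peaks, and a second rise lies to the right of the gene, up to 23 per bin in KO and 22 in WT.

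The binned plot of CDH8 shows one broad, broken domain in both genotypes with a gap in KO in the middle of the gene. Without CDH8, the other 10 neural cadherins had 0.360% of their windows under H3K27me3 in KO and 0.424% in WT, below the 0.622% in KO and 0.857% in WT over all genes. CDH12, a brain cadherin (chromosome 5, 21750673 to 22853344), carried most of that, with 39 H3K27me3 peaks over 10860 bp in KO and 42 over 10585 bp in WT, of which 4 in each were shared. Its EZH2 was 0 peaks in KO and 4 in WT (718 bp, all in the middle part of the gene when cut in the same way). CDH20 was level, with 12 H3K27me3 peaks in KO and 10 in WT covering 2800 bp in each.

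CDH19, the cadherin of Schwann cells, was empty in KO and marked in WT. It had 0 H3K27me3 peaks in KO and 10 over 2318 bp (2.05%) in WT, and 0 EZH2 peaks in KO and 2 (400 bp) in WT. The 500 kb to its right held 0 H3K27me3 peaks in KO and 18 in WT, while the 500 kb to its left held 11 in KO and 6 in WT. A stretch of 3744 kb that begins just left of CDH19 had no KO H3K27me3 peak and 110 WT peaks; it was chosen for having none in KO, so the counts are a description.

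At the remaining neural cadherins peaks were few. N-cadherin (CDH2), which proximal kidney tubule cells also make, had no H3K27me3 peak in either genotype, and 0 EZH2 peaks in KO against 1 in WT (178 bp). CDH9, CDH10 and CDH18 on chromosome 5 likewise had no H3K27me3 in KO or WT, with 0, 1 and 1 EZH2 peaks in KO and 1, 0 and 5 in WT. CDH12, which had H3K27me3 peaks in both genotypes, lies between CDH18 and CDH10. CDH18, over a window of 1.11 Mb, was called lower for EZH2 on 173 bp in KO and 887 bp in WT. CDH22 had 4 H3K27me3 peaks in KO and 3 in WT and 2 EZH2 peaks in KO and 4 in WT; an EZH2 peak near its right end was in both lists, 434 bp long in KO and 522 bp in WT. R-cadherin (CDH4) and CDH7 had at most 2 peaks in any list.

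Of the other cadherins, CDH13 was called lower for H3K27me3, with the largest difference of that group in covered bases though not in covered share. CDH13 encodes T-cadherin, which lacks a cytoplasmic tail and is held by a lipid anchor. It had 1 H3K27me3 peak over 307 bp in KO and 15 over 3339 bp in WT (0.0259% in KO and 0.282% in WT of a 1.18 Mb window), 12 of the WT peaks in the right part of 3. EZH2 did not share this: 10 peaks over 2671 bp in KO and 14 over 3119 bp in WT. The 500 kb to the left of CDH13 ran the other way, with 108 H3K27me3 peaks in KO and 46 in WT, and 22 EZH2 peaks in KO and 8 in WT.

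CDH11, the osteoblast cadherin that mesenchymal cells make, was the member called higher for EZH2. It had 4 EZH2 peaks over 1512 bp (0.796%) in KO and 3 over 624 bp (0.328%) in WT. Most of the gain was 1 place, where a KO peak of 808 bp overlapped a WT peak of 301 bp near the right end of the gene. H3K27me3 at CDH11 was 9 peaks over 2389 bp in KO and 12 over 3132 bp in WT. CDH23, the tip-link partner of PCDH15 in hair cells, had 21 H3K27me3 peaks over 5718 bp (1.33%) in KO and 13 over 3690 bp (0.860%) in WT, the largest excess of H3K27me3 bases in KO among the members with all peaks counted. With scores of 7 or more it turned to -0.61 percentage points (KO minus WT), and CDH23 was then called lower. Its window also holds C10orf105, VSIR and PSAP. VE-cadherin (CDH5) had 1 H3K27me3 peak in KO and 0 in WT.

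PCDH15 showed the widest difference of all members. PCDH15 forms the lower part of the tip link that opens hair cell channels, and spans 1825 kb of chromosome 10 (53802771 to 55627942). It had 1 H3K27me3 peak over 171 bp in KO and 166 over 53132 bp (2.90%) in WT, and none of the 166 overlapped the KO peak. EZH2 gave 7 peaks over 1616 bp in KO and 16 over 3897 bp in WT. The WT mark was uneven, with 33 peaks in the left part of 3, 22 in the middle and 109 in the right, where KO had 0, 1 and 0.

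The difference at PCDH15 was not bounded by the gene. The 500 kb to its left held 0 H3K27me3 peaks in KO and 67 in WT, and the 500 kb to its right 2 in KO and 52 in WT. The KO list was empty over 1852 kb from 52860391 to 54712639, a stretch chosen for being empty, where WT had 161 H3K27me3 peaks; EZH2 had 5 peaks there in KO and 14 in WT. Over all gene windows of chromosome 10 the KO/WT ratio of covered H3K27me3 bases was 0.783, and for PCDH15 with CDH23 on the same chromosome 0.104.

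**Figure D4:**
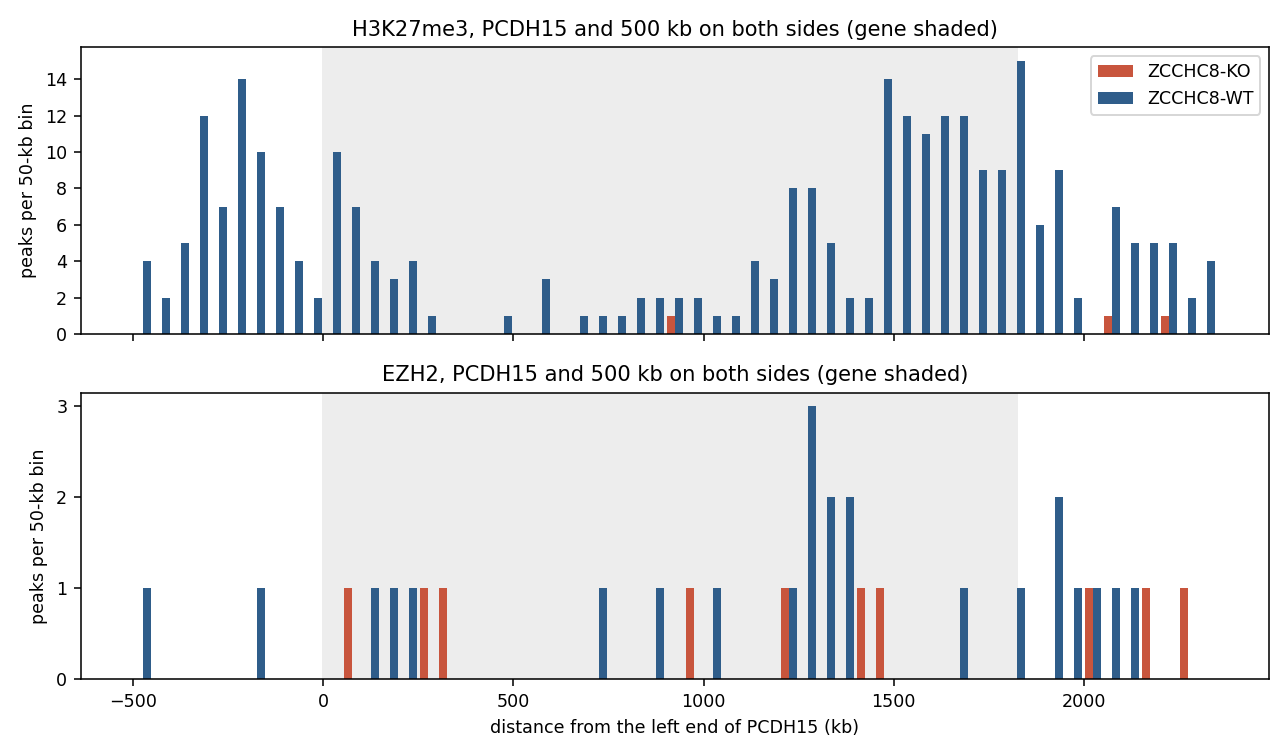
Number of peaks per 50-kb bin over PCDH15 (shaded) and 500 kb on both sides, by distance from the gene's left end in kb, for H3K27me3 (top) and EZH2 (bottom), KO bars left of WT bars. No bin holds more than 1 H3K27me3 peak in KO, while WT bins reach 15 at the gene's right end; EZH2 peaks are scattered in both, at most 1 per bin in KO and 3 in WT.

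The binned plot of PCDH15 shows the WT mark at both ends of the gene and outside it. PCDH17 is a delta-2 protocadherin of neurons. It had 10 H3K27me3 peaks over 3171 bp (2.90%) in KO and 20 over 5593 bp (5.12%) in WT, of which 2 in each overlapped the other genotype, and no EZH2 peak in either genotype. The 500 kb to its right held 5 H3K27me3 peaks in KO and 13 in WT, and the 500 kb to its left 9 in KO and 5 in WT.

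Apart from PCDH1, the other protocadherins had few peaks. PCDH10 had 0 H3K27me3 peaks in KO and 1 in WT, the epilepsy gene PCDH19 had 0 EZH2 peaks in KO and 1 in WT, and PCDH9 had none in KO against 1 H3K27me3 and 2 EZH2 peaks in WT over a window of 937.5 kb. PCDH7, over 436.4 kb, had none at all. These long genes lay in surroundings that were sparse within 500 kb. The 500 kb on either side of PCDH7 held 0 KO and at most 3 WT H3K27me3 peaks, and at PCDH9 at most 1 KO and 0 WT. Longer stretches without a KO H3K27me3 peak, chosen for having none, covered both genes. They were 4482 kb with 92 WT peaks at PCDH7 and 6699 kb with 116 at PCDH9. Stretches without a WT peak also touched them, of 999.8 kb with 0 KO peaks at PCDH7 and 4153 kb with 1 at PCDH9. Stretches empty in KO were thus not particular to CDH19 and PCDH15.

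**Figure D5:**
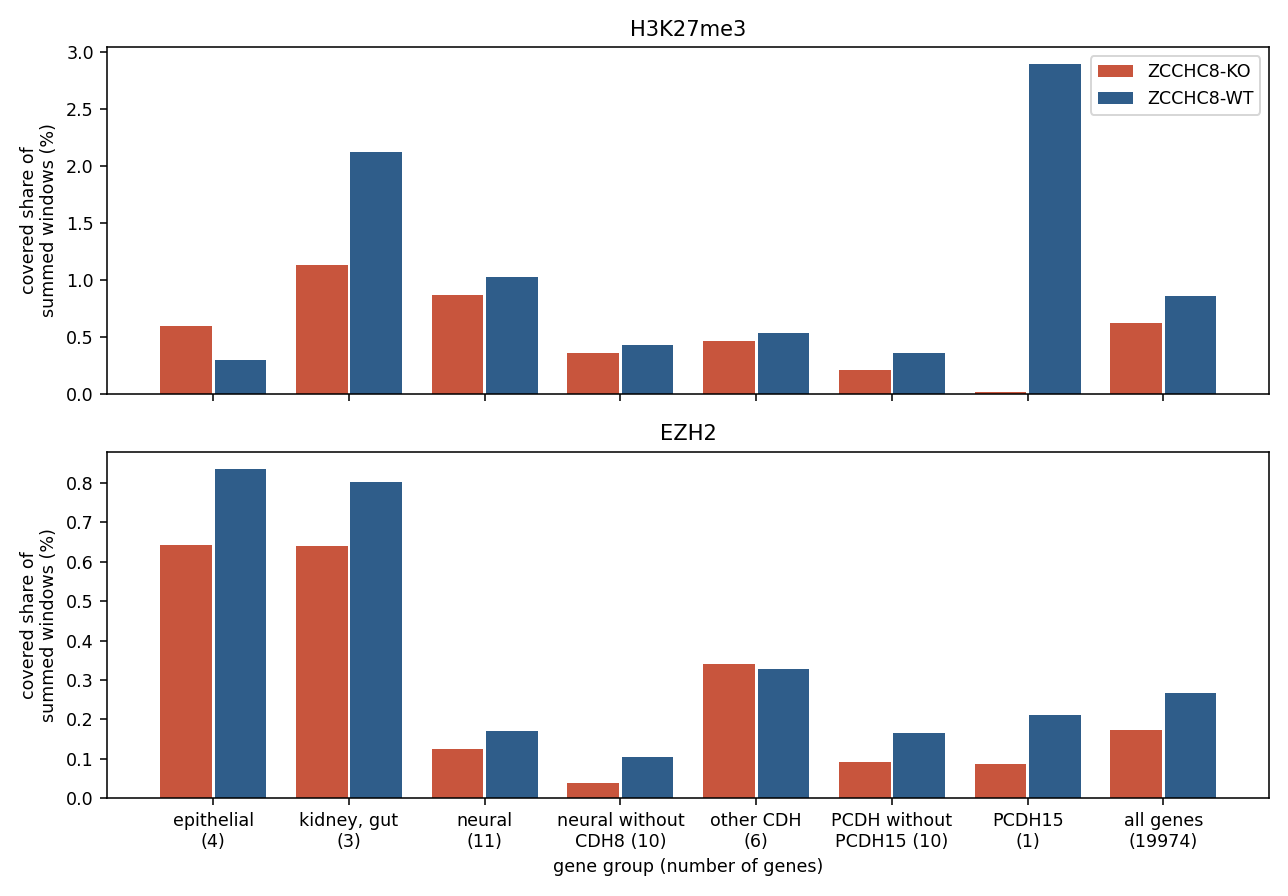
Share of summed gene windows covered by H3K27me3 (top) and EZH2 (bottom) peaks (%), KO bars left of WT bars, for each role group with its number of genes; PCDH1 counts in the epithelial group and in the 10 protocadherins without PCDH15. Kidney and gut genes reach 1.13% in KO and 2.12% in WT for H3K27me3, and epithelial genes 0.643% in KO and 0.836% in WT for EZH2, against 0.174% in KO and 0.267% in WT for all genes.

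Set side by side, the groups had the following covered shares, which were not tested against each other. H3K27me3 covered 0.595% in KO and 0.293% in WT of the epithelial windows, 1.13% in KO and 2.12% in WT of the kidney and gut windows, and 0.868% in KO and 1.03% in WT of the neural windows. EZH2 covered 0.643% in KO and 0.836% in WT of the epithelial windows, 0.641% in KO and 0.801% in WT of the kidney and gut windows, and 0.126% in KO and 0.171% in WT of the neural windows. The bar plot of these groups rests on few genes in each bar: PCDH1 gave 5 of the 6 epithelial EZH2 peaks in KO and 7 of the 9 in WT, and CDH8 gave 69 of the 126 neural H3K27me3 peaks in KO and 81 of the 149 in WT. H3K27me3 peaks were at 3 of 4 epithelial genes in KO and 2 in WT, at 2 of 3 kidney and gut genes in each, and at 6 of 11 neural genes in KO and 7 in WT, beside 23.2% in KO and 26.1% in WT of all genes and 40.6% in KO and 48.8% in WT of those with long windows. EZH2 peaks were at 2 of 4 epithelial genes in each, at 2 of 3 kidney and gut genes in each, and at 6 of 11 neural genes in KO and 9 in WT, beside 18.4% in KO and 27% in WT of all genes and 44.3% in KO and 60.9% in WT of those with long windows. The neural windows had a median of 232.3 kb.

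Few member peaks sat at the same bases in KO and WT. Of the members' H3K27me3 peaks, 33 of 185 in KO (17.8%, exact 95% Clopper-Pearson interval 12.6 to 24.1) and 32 of 396 in WT (8.08%, 5.59 to 11.2) overlapped a peak of the other genotype by at least 1 bp, where 21.2% in KO and 15.7% in WT did over all gene windows. Without PCDH15, the WT share was 13.9% (9.72 to 19.1). For EZH2 the shares were 8 of 64 in KO (12.5%, 5.55 to 23.2) and 8 of 95 in WT (8.42%, 3.71 to 15.9), where all gene windows gave 11.1% in KO and 6.53% in WT. These intervals cover counting error only, and neighbouring peaks are not independent.

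EZH2 and H3K27me3 rarely shared bases at the members. An H3K27me3 peak of the same genotype overlapped 8 of 64 EZH2 peaks in KO (12.5%, 5.55 to 23.2) and 7 of 95 in WT (7.37%, 3.01 to 14.6), against 17.8% in KO and 13.2% in WT over all gene windows. CDH8 gave 6 of the 8 in KO and 2 of the 7 in WT. Without CDH8, 2 of 48 did in KO and 5 of 81 in WT. Scores of 7 or more were held by 16.8% of the members' H3K27me3 peaks in KO and 64.9% in WT, against 28.1% in KO and 70.6% in WT over all gene windows. For EZH2 these were 14.1% in KO and 54.7% in WT, against 21.4% in KO and 67.1% in WT over all gene windows.

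Genes whose products work with cadherins were counted in the same way. Of 15 catenins and junction linkers, which tie cadherins to the cytoskeleton, 4 had H3K27me3 in KO and 5 in WT, with 0 called lower and 1 higher (CTNND2, a neural catenin, with 24 peaks in KO and 9 in WT), and for EZH2 4 were called lower and 0 higher. Of all genes, 23.2% in KO and 26.1% in WT had H3K27me3, 6.84% were called lower and 3.54% higher for it, and 5.92% were called lower and 1.93% higher for EZH2. The genes called lower for EZH2 were CTNND2, PKP4 and AFDN, with windows of 100 kb or more, and PKP1, with a shorter one. In genes with windows of 100 kb or more, 18.5% were called lower for EZH2, and 15% lower and 4.35% higher for H3K27me3. Among shorter ones, 3.05% were called lower for EZH2. CTNNA3, an alpha catenin gene of 1.85 Mb on the same chromosome as PCDH15, had 146 H3K27me3 peaks in KO and 251 in WT. CTNNB1, which encodes beta-catenin, had 0 in KO and 1 in WT. Of 18 large and cadherin-related genes, 7 had H3K27me3 in KO and 7 in WT, with 1 called lower (DCHS2) and 0 higher. For EZH2, 1 of these was called lower (FAT3) and 1 higher (FAT2).

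The desmosomal cadherins, which join epithelial cells to the keratin network, had the highest share of H3K27me3 calls among these 4 lists of related genes. Of 7 genes, 0 had an H3K27me3 peak in KO and 4 in WT, and all 4 (DSC1, DSC2, DSC3 and DSG1) were called lower, where 6.84% of all genes and 4.99% of those with windows under 100 kb were. DSC2 had 0 peaks in KO and 19 in WT (11.4% of its window). The 4 genes are neighbours on chromosome 18, so they count as 1 block of 379.9 kb, with 0 H3K27me3 peaks in KO and 55 in WT, and 1 EZH2 peak in KO and 4 in WT. Of 7 transcriptional repressors of CDH1, SNAI2 and ZEB1 had 0 H3K27me3 peaks in KO and 1 each in WT, and none of the 7 was called for either antibody.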

How the data were processed

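Per the labels' protocols, fixed and sonicated ACHN chromatin was precipitated and paired-end sequenced. The submitters' processing notes name cutadapt 1.9.3, Bowtie2 2.2.4 and the build hg38, without their roles. No source used here gives the peak caller; a p threshold of 1e-3 stands in the peak names. Of 6 samples, 4 had a peak list and 2 were inputs.

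Each list gave position, peak length in bp and a score, as deposited by the authors. The definition of the score is not given, so it was used only as a filter. Identical lines were counted once. Covered bases are merged peak bases in the gene window (GRCh38.p14, RefSeq), which was used without strand or exons. Thus "left" means the lower coordinate. Overlap means at least 1 bp. Computations used Python 3.11.15, NumPy 2.4.6, pandas 2.3.3, SciPy 1.17.1 and matplotlib 3.10.9, and were tested on simulated data.

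Groups followed the genotype label. Members and gene lists were chosen with earlier results of these data known. All members were described, and members with the most peaks or the largest differences in full. The division of genes into 3 parts, the peak-free stretches and the omission of PCDH15 or CDH8 were chosen after values were seen.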

Additional observations from a re-analysis of the deposited data

How the results depend on the processing

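Of 48 alternatives to the 6 counts and ratios over all members, 39 gave a value within 1.5 times the one reported, 2 of which could not move because the KO lists were unchanged. Leaving out PCDH15 or CDH8 could lower a count of members by at most 1, so those counts could not leave that range either. With scores of 7 or more, a threshold that keeps far fewer KO than WT peaks, H3K27me3 was at 10 members in KO and EZH2 at 7, the KO/WT ratios were 0.125 for H3K27me3 and 0.252 for EZH2, and the members called were 12 lower and 1 higher for H3K27me3 and 6 lower and 0 higher for EZH2. With the WT list cut by score to the size of the KO list, the EZH2 ratio reversed to 1.26, EZH2 at CDH18 was 0.0155 percentage points higher in KO, and the EZH2 calls were 0 lower and 2 higher (CDH8 and CDH11); the H3K27me3 calls were 4 lower and 1 higher (PCDH1). Outside chromosomes 7, 16 and 20, with fewer members by construction, H3K27me3 was at 9 members in KO and EZH2 at 8. With peaks of 250 bp or more, EZH2 was at 8 members in WT, 1 member was called lower for EZH2 (PCDH15) and CDH26 was called higher for H3K27me3. Without flanks, 5 members were called lower for EZH2. Calls and ratios over all genes were computed under the main setting only. The members' calls and ratios under the other settings therefore have no background beside them. Without PCDH15, chosen after the values were seen, the H3K27me3 ratio was 0.812 and 2 members were called lower for EZH2. CDH13, CDH17, CDH19 and PCDH15 were called lower for H3K27me3 under both window sizes, both score filters and the length filter. Of 95 alternatives for the KO minus WT difference at single genes, 79 kept the direction, 3 fell to 0 (CDH12 and CDH18 for EZH2), 8 turned it and 5 belong to CDH20, whose difference was 0. Beside CDH18, the direction turned for H3K27me3 at CDH26 (-0.58) and CDH23 (-0.61) with scores of 7 or more, PCDH1 with flanks of 20 kb (-0.51), CDH6 with the WT list cut (0.15) and CDH11 with peaks of 250 bp or more (0.02), and for EZH2 at CDH8 with scores of 7 or more (-0.19) and CDH6 with flanks of 20 kb (0.13), all in percentage points. The cause of the other changes was not tested. No paired analysis was possible because there was 1 library per group and the labels carry no replicate numbers. Depth is unknown, so a gene without peaks is not shown to lack the mark.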
